A study of Mus musculus with 8 samples.

Results

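Glycolysis and glycogen metabolism were followed in skeletal muscle with and without LSD1 through 37 genes, chosen by gene symbol for glucose uptake, glycolysis, lactate, the glycerol phosphate shuttle and glycogen. All 37 symbols were found, on 38 of the 27041 rows of the count table, since *Aldoa* has a second row of 11 to 41 reads per library. A mean count above 50 over the libraries was met by 36 of the 37 genes, and *Pgam1*, with 11 to 31 reads, was not tested. The study compared 9-week-old male C57BL/6J mice of 2 genotypes. Ctrl mice carry LSD1 L2/L2 alleles, in which LoxP sites flank exon 1 of *Kdm1a*, the gene of the histone demethylase LSD1, and carry no Cre. LSD1skm-/- mice carry the same floxed alleles together with HSA-Cre, a recombinase driven by the skeletal actin promoter and active in myofibers, so that the other cells of the muscle keep LSD1. The labels name skeletal muscle and the methods gastrocnemius, a mainly fast-glycolytic limb muscle. The labels describe 8 libraries, and 6 had counts, from Ctrl replicates 1 to 4 and LSD1skm-/- replicates 1 and 2. LSD1skm-/- replicates 3 and 4 were not analysed here.

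Muscle takes up glucose through GLUT4 (*Slc2a4*) and traps it as glucose-6-phosphate with hexokinase. Glucose-6-phosphate then enters glycolysis, which makes pyruvate and ATP, or is stored as glycogen, which phosphorylase breaks down again during contraction. Fast-twitch fibers rely on these routes more than slow-twitch fibers, and muscle uses its own isoenzymes for several steps, such as PFK-M (*Pfkm*), beta-enolase (*Eno3*), the muscle phosphoglycerate mutase (*Pgam2*) and myophosphorylase (*Pygm*).

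The libraries held 30654828 to 41278769 counted reads, of which the members took 5.36% to 6.24%. *Kdm1a*, whose count covers the whole gene and not exon 1 alone, stood at 22.0 to 28.1 CPM (counts scaled by library size and TMM factor) in Ctrl replicates 1 to 3 and at 2.96 and 3.48 CPM in the LSD1skm-/- libraries. In the library labelled Ctrl replicate 4 it stood at 3.66 CPM, which goes against the label. Labels were left as deposited, and every comparison was made by the labels (4 against 2 libraries) and again without that library (3 against 2). The 6 myofiber markers summed to 141100 to 167100 CPM in Ctrl and to 134900 and 137800 CPM in LSD1skm-/- muscle, with 5 of 6 lower by the labels, 2 of them (*Ttn* and *Myh4*) at an unadjusted p under 0.05, and none of the genes in the marker lists was at 0 in any library.

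By the labels, edgeR called 0 of the 36 tested members at an adjusted p under 0.05, and 0 of all 11364 tested genes (0%). At an unadjusted p under 0.05, 3 members were higher in LSD1skm-/- muscle (*Slc16a1*, *Gbe1* and *Pgk1*) and 2 were lower (*Gyg* and *Pfkfb3*). Over all genes this rule took 5.02% as higher and 3.88% as lower. Without the library labelled Ctrl replicate 4, *Hk1* and *Slc16a1* rose and *Gyg* fell at an adjusted p under 0.05, beside 4.36% of all genes that rose and 1.02% that fell. At an unadjusted p under 0.05, 4 members were then higher and 5 lower, beside 12.5% and 7.72% of all genes. By DESeq2, 0 members were called by the labels, beside 0.405% of all genes, and 7 when that library was left out, beside 9.29%.

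The direction of the members was mixed in both comparisons. The log2 fold change of LSD1skm-/- against Ctrl was above 0 for 21 members and below 0 for 15 by the labels, with a median of 0.064, beside -0.008 over all tested genes. Without the library labelled Ctrl replicate 4, 21 were again above 0 and 15 below, with a median of 0.031, beside -0.006. The members' median turned to -0.043 by the labels without LSD1skm-/- replicate 2 and was 0.151 without LSD1skm-/- replicate 1. All 4 lactate genes lay above 0 in both comparisons, of which *Ldha* and *Slc16a3* turned below 0 without LSD1skm-/- replicate 2. Of the 11 glycogen genes, 8 lay below 0 in both comparisons, of which *Ppp1r3a* and *Pygm* each turned in 1 comparison when scaled to library size alone. With 1 library left out by the labels, the log2 fold change of *Gys1* reached 0.03 and that of *Ppp1r3a* 0.11.

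**Figure D1:**
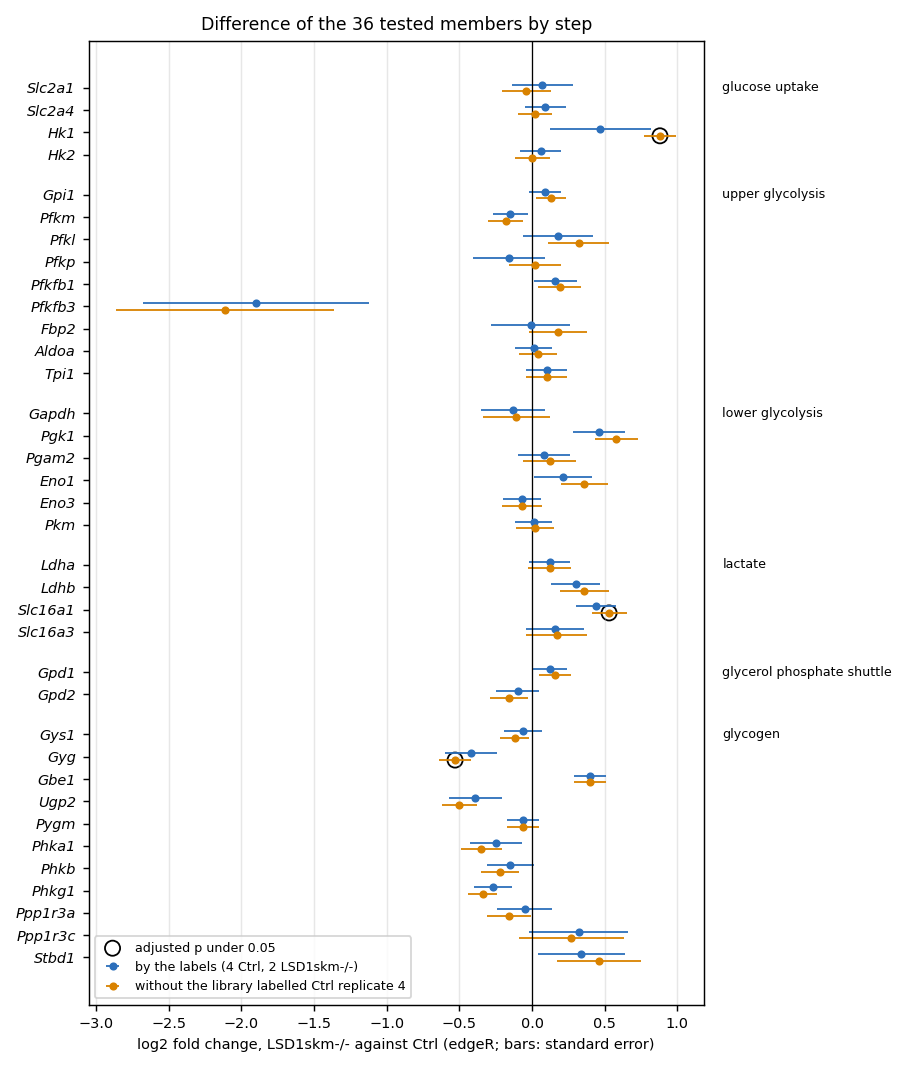
Log2 fold change of LSD1skm-/- against Ctrl muscle for the 36 tested members, grouped by step on the y axis, by the labels (blue) and without the library labelled Ctrl replicate 4 (orange); points are edgeR estimates, bars are standard errors and circles mark an adjusted p under 0.05. Circles sit on *Hk1* (0.88), *Slc16a1* (0.53) and *Gyg* (-0.53), all orange, and *Pfkfb3* lies far to the left with wide bars.

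Levels per kilobase of transcript separated the muscle isoenzymes from the others. *Aldoa*, the muscle aldolase, was the highest member at 11000 CPM per kilobase in Ctrl muscle (mean of 4 libraries), followed by *Eno3* at 4750, *Pygm* at 3260 and *Pgam2* at 3170. These muscle forms stood far above their paralogs. *Pfkm* was at 1640 CPM per kilobase, against 2.75 for *Pfkl* and 1.11 for *Pfkp*, the liver and platelet phosphofructokinases. *Hk2*, the main hexokinase of muscle, was at 93.2 CPM per kilobase and *Hk1*, the widely expressed form, at 2.22. *Slc2a4* was at 279 CPM per kilobase and *Slc2a1*, which encodes GLUT1, at 2.12. *Ldha*, the lactate dehydrogenase subunit of fast muscle, was at 1370 CPM per kilobase and *Ldhb*, the subunit of heart, at 89.3. These orders held in each of the 6 libraries, with no overlap between the forms of a pair. The levels of *Eno3* in single libraries (4100 to 5090 CPM per kilobase) lay above those of *Pygm* (3020 to 3410), whereas *Pgam2* (2680 to 3940) overlapped *Pygm*.

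**Figure D2:**
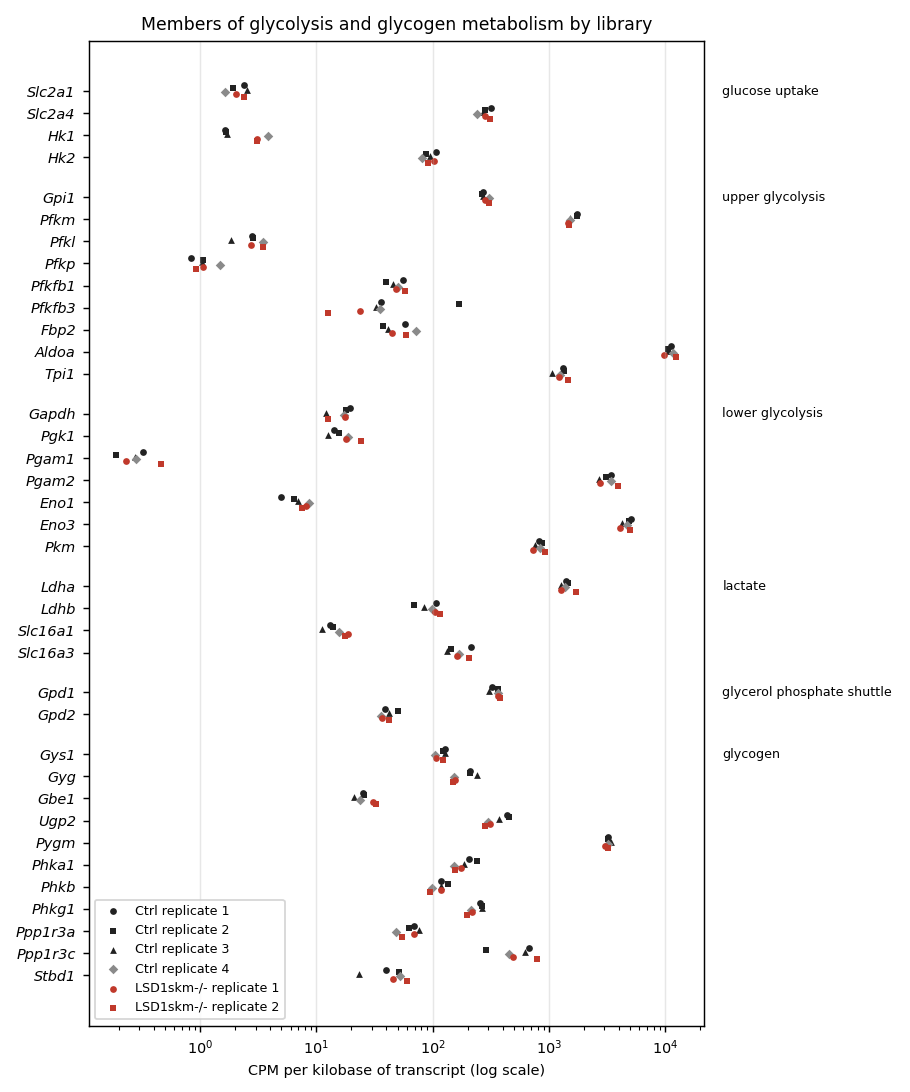
Level of each member in each of the 6 libraries, in CPM per kilobase of transcript on a log x axis, with members on the y axis grouped by step; black symbols are Ctrl replicates 1 to 3, grey diamonds the library labelled Ctrl replicate 4 and red symbols the LSD1skm-/- libraries. Levels run from under 1 CPM per kilobase for *Pgam1* to about 11000 for *Aldoa*, and the 6 symbols of most members lie close together.

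Several low levels in this picture fell on genes whose sequence has copies elsewhere in the genome. Reads of 50 bases were kept only where they aligned uniquely, so a read from a stretch with an exact copy is lost or is not assigned to its gene. In the GENCODE vM21 transcripts, 90.4% of the 50-base stretches of *Gapdh* also occur in genes elsewhere, 213 of them annotated pseudogenes. The shares were 72.2% for *Eno1*, 68% for *Pgk1*, 41.5% for *Pgam1*, 30.5% for *Pkm*, 27% for *Ldhb* and 19.6% for *Gpi1*. They were 16.6% for *Ldha*, 13.5% for *Aldoa*, 7.51% for *Tpi1* and 4.69% for *Phkg1*, and under 1% for *Pygm* and *Pfkl*. The other 24 members, *Hk1*, *Slc16a1*, *Gyg*, *Gbe1*, *Eno3* and *Pgam2* among them, held none. Mean Ctrl levels were also scaled to the stretches without an exact copy alone, in CPM per kilobase of these. They were 0.474 for *Pgam1* against 3360 for *Pgam2*, and 24.8 for *Eno1* against 4900 for *Eno3*. *Pgk1* stood at 49.1 and *Gapdh* at 182. On this scale *Pgam1* and *Eno1* thus stayed far below their muscle forms. The cause of the low levels was not tested. The following 50-base stretches of coding sequence (GRCm38, 5′ to 3′ along the transcript) show the contrast. Those of *Gapdh*, *Eno1* and *Pgam1* occur letter for letter in 84, 5 and 3 genes elsewhere. Those of *Eno3* and *Pgam2* are the same stretch of the muscle form, with capitals where it differs from *Eno1* at 5 and from *Pgam1* at 10 of the 50 positions, and have no exact copy.
Gapdh, exon 4, chr6:125162898-125162947, minus strand: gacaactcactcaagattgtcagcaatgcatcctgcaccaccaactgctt
Eno1, exon 7, chr4:150245115-150245164, plus strand: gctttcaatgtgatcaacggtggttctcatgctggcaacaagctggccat
Eno3, exon 7, chr11:70660660-70660709, plus strand: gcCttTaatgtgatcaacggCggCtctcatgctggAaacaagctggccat
Pgam1, exon 3, chr19:41916679-41916728, plus strand: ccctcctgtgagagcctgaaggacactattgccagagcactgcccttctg
Pgam2, exon 2, chr11:5803094-5803143, minus strand: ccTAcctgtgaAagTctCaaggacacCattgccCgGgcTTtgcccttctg

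*Gapdh*, which encodes glyceraldehyde-3-phosphate dehydrogenase and is among the most abundant enzymes of muscle, was counted at only 530 to 962 reads per library. The 210 rows of the table named for its pseudogenes together held 11224 to 16153 reads, which is 14.1 to 25.5 times the count of *Gapdh* itself in the same library. The highest of these ratios was in LSD1skm-/- replicate 2 and the lowest in Ctrl replicate 1. *Gapdh* alone stood at 24.7, 23.0, 15.4 and 22.0 CPM in Ctrl replicates 1 to 4 and at 22.7 and 16.2 CPM in LSD1skm-/- replicates 1 and 2, so the groups overlapped. Its log2 fold change was -0.13 ± 0.22 (SE) by the labels and turned to 0.12 (unadjusted p = 0.296 in edgeR) when the reads of the pseudogene rows were added. Neither value passed the test, so the direction of *Gapdh* could not be read from these counts. The pseudogene rows of *Aldoa* held at most 0.101% and those of *Ldha* at most 0.192% of the gene's own reads. For the more widely shared *Pgk1* and *Eno1* the values were at most 0.896% and 7.74%, and the pseudogenes of *Pgam1* had no row. A read dropped for lack of a unique place is in neither row, so these values do not measure reads lost.

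**Figure D3:**
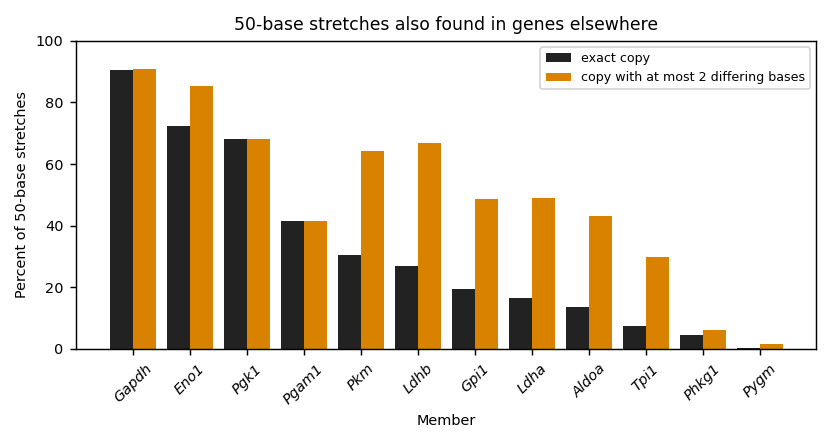
Share of each member's 50-base stretches (y axis, percent) that also occur in genes elsewhere in the GENCODE vM21 transcripts, exactly (black) or with at most 2 differing bases (orange), for the members with more than 1% by the second measure. *Gapdh*, *Eno1*, *Pgk1* and *Pgam1* stand highest by exact copies, and the orange bars of *Pkm* (64.1%) and *Ldhb* (66.7%) are more than 2 times the black ones.

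In glucose uptake and phosphorylation, the largest log2 fold change was that of *Hk1*, a gene at a low level, whose enzyme binds to mitochondria and commits glucose to metabolism (chr10:62268855-62379908, minus strand). *Hk1* stood at 6.34, 6.47 and 6.58 CPM in Ctrl replicates 1 to 3, at 14.8 CPM in the library labelled Ctrl replicate 4, and at 11.9 and 12.0 CPM in LSD1skm-/- replicates 1 and 2. The first 3 Ctrl libraries lay close together and below both LSD1skm-/- libraries, and the fourth lay above them all. Without that library *Hk1* rose 1.84-fold (log2 0.88 ± 0.11, SE, adjusted p = 0.00675 in edgeR), and by the labels its log2 fold change was 0.47 ± 0.35 (adjusted p = 0.672). The call was kept without any 1 of Ctrl replicates 1 to 3 or LSD1skm-/- replicate 1, and was lost without LSD1skm-/- replicate 2 (0.87, adjusted p = 0.0617).

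*Slc2a4* and *Hk2*, the more abundant genes of the step, showed no such difference. *Slc2a4* was at 810, 720, 683 and 604 CPM in Ctrl and at 709 and 785 CPM in LSD1skm-/- muscle. *Hk2* was at 596, 489, 524 and 448 CPM in Ctrl and at 567 and 503 CPM in LSD1skm-/- muscle. In both genes the LSD1skm-/- libraries lay inside the Ctrl range, with log2 fold changes of 0.09 ± 0.14 and 0.06 ± 0.14 by the labels. *Slc2a1* had counts of 202 to 296 reads and a log2 fold change of 0.07 ± 0.21. The values were 0.02 for *Slc2a4*, -0.04 for *Slc2a1* and -0.00 for *Hk2* in the comparison of 3 against 2 libraries.

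Of the 9 members of upper glycolysis, 1 passed an unadjusted p of 0.05 in either comparison. *Pfkfb3* makes and removes fructose-2,6-bisphosphate, the activator of phosphofructokinase. It stood at 80.4, 373, 72.8 and 77.8 CPM in Ctrl replicates 1 to 4 and at 52.6 and 28.2 CPM in LSD1skm-/- replicates 1 and 2. Ctrl replicate 2 lay far above the other Ctrl libraries, and both LSD1skm-/- libraries lay below all Ctrl libraries. The log2 fold change by the labels was -1.90 ± 0.78 (unadjusted p = 0.0427, adjusted p = 0.557 in edgeR). Without Ctrl replicate 2 it was -0.93 (unadjusted p = 0.00812, adjusted p = 0.76 in edgeR). *Pfkm*, the muscle phosphofructokinase, was at 5045, 5054, 4380 and 4413 CPM in Ctrl and at 4184 and 4305 CPM in LSD1skm-/- muscle. Both LSD1skm-/- libraries lay below the Ctrl libraries, and the difference (-0.15 ± 0.12, unadjusted p = 0.23) did not pass the test.

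*Gpi1*, which turns glucose-6-phosphate into fructose-6-phosphate, was at 785, 767, 782 and 881 CPM in Ctrl and at 821 and 884 CPM in LSD1skm-/- muscle. The library labelled Ctrl replicate 4 again lay with the LSD1skm-/- libraries, and the log2 fold change was 0.09 ± 0.11. *Aldoa*, *Tpi1* (triosephosphate isomerase), *Fbp2* (the muscle fructose-1,6-bisphosphatase) and *Pfkfb1* had log2 fold changes of -0.01 to 0.16 by the labels, with overlapping groups. *Pfkl* and *Pfkp*, at 3.44 to 13.1 CPM in single libraries, had log2 fold changes of 0.18 ± 0.24 and -0.16 ± 0.25.

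In lower glycolysis, *Pgk1*, the phosphoglycerate kinase that makes the first ATP of the pathway, stood at 25.8, 28.5, 23.0 and 34.4 CPM in Ctrl and at 32.8 and 44.2 CPM in LSD1skm-/- muscle. LSD1skm-/- replicate 1 lay inside the Ctrl range and replicate 2 above it. The log2 fold change was 0.46 ± 0.18 by the labels (unadjusted p = 0.0368, adjusted p = 0.557) and 0.58 ± 0.15 without the library labelled Ctrl replicate 4 (adjusted p = 0.0811), and by the labels it was 0.23 without LSD1skm-/- replicate 2. These values rest on the 793 to 1663 reads that could be placed on *Pgk1*, most of whose stretches have a copy elsewhere.

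The enzymes with the highest counts in this step did not pass the test. *Eno3* was at 7967, 7711, 6675 and 7360 CPM in Ctrl and at 6415 and 7764 CPM in LSD1skm-/- muscle, a log2 fold change of -0.07 ± 0.13. *Pgam2* was at 2876, 2633, 2252 and 2878 CPM in Ctrl and at 2303 and 3313 CPM in LSD1skm-/- muscle, a log2 fold change of 0.08 ± 0.18. In both genes 1 LSD1skm-/- library lay below and 1 above the Ctrl mean. The same held for *Pkm*, the pyruvate kinase of muscle, at 1852 to 2105 CPM in Ctrl and at 1770 and 2238 CPM in LSD1skm-/- muscle. *Eno1*, the widely expressed enolase, was at 10.1 to 17.5 CPM in Ctrl and at 16.4 and 15.2 CPM in LSD1skm-/- muscle, with a log2 fold change of 0.21 ± 0.20.

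Among the lactate genes, *Slc16a1* (chr3:104638668-104658462, plus strand) encodes MCT1, a carrier of lactate and pyruvate across the cell membrane. It stood at 58.3, 61.1, 48.9 and 69.6 CPM in Ctrl replicates 1 to 4 and at 83.4 and 78.3 CPM in LSD1skm-/- replicates 1 and 2. Both LSD1skm-/- libraries lay above all 4 Ctrl libraries, and the library labelled Ctrl replicate 4 was the highest of these. Without that library *Slc16a1* rose 1.44-fold (log2 0.53 ± 0.12, adjusted p = 0.0498 in edgeR), and by the labels the log2 fold change was 0.44 ± 0.14 (unadjusted p = 0.0152, adjusted p = 0.557). The call lay just inside the threshold and was lost when any other library was left out, with adjusted p-values from 0.0611 to 0.175. It was also lost with DESeq2 size factors (0.0549), upper-quartile scaling (0.051) and a mean count above 10 (0.0558).

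*Slc16a3*, which encodes MCT4, the carrier that exports lactate from fast fibers, was at 920, 630, 581 and 735 CPM in Ctrl and at 705 and 894 CPM in LSD1skm-/- muscle. *Ldha* was at 2540, 2649, 2285 and 2491 CPM in Ctrl and at 2326 and 3086 CPM in LSD1skm-/- muscle. *Ldhb* was at 138, 89.5, 110 and 128 CPM in Ctrl and at 137 and 151 CPM in LSD1skm-/- muscle. The groups overlapped in all of these genes. Their log2 fold changes by the labels were 0.16 ± 0.20, 0.12 ± 0.14 and 0.30 ± 0.17, and those of *Ldha* and *Slc16a3* turned below 0 without LSD1skm-/- replicate 2, at -0.10 and -0.02.

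The promoter of *Slc16a1* is shown because its 250 bases before the start held 2 of the 3 motifs searched in the members' promoters. The motifs were the E-box CACGTG, a palindrome bound by factors such as USF and MYC, GCGCATGC, part of the palindrome bound by NRF1, and AGAACA, a half-site of the glucocorticoid receptor. RefSeq promoters (GRCm38.p6, 250 bases before to 50 after the start) were found for 35 of the 37 members, in 51 windows. On either strand, CACGTG was in 7 of the 51 windows (13.7%), those of *Fbp2*, *Gyg*, *Ldha*, *Pfkfb3*, *Pfkm*, *Ppp1r3c* and *Slc16a1*, and in 7.15% of all 32851 promoters. GCGCATGC was in 2 of the 51 windows (3.92%), those of *Pgam1* and *Slc16a1*, and in 2.71% of all promoters. AGAACA was in 9 of the 51 windows (17.6%), *Hk1* among them, and in 19% of all promoters, and was not in that of *Slc16a1*. No motif overlapped another in the stretch printed here, where capitals mark CACGTG and GCGCATGC.
Slc16a1, GRCm38.p6, chr3:104638414-104638663, plus strand: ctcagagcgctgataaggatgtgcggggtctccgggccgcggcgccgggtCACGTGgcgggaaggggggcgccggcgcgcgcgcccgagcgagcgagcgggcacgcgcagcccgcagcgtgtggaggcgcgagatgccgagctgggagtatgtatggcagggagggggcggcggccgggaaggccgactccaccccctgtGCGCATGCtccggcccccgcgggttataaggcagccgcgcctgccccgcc

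The glycerol phosphate shuttle carries the electrons of cytosolic NADH into mitochondria. *Gpd1*, its cytosolic enzyme, was at 929, 1055, 880 and 1052 CPM in Ctrl and at 1045 and 1084 CPM in LSD1skm-/- muscle. *Gpd2*, its mitochondrial enzyme, was at 225, 289, 244 and 209 CPM in Ctrl and at 210 and 241 CPM in LSD1skm-/- muscle. The groups overlapped in both, with log2 fold changes of 0.12 ± 0.12 and -0.10 ± 0.15 by the labels.

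Glycogen synthesis held the call in the other direction. *Gyg* (chr3:20122084-20155317, minus strand) encodes glycogenin, the protein primer on which a glycogen particle is built. It stood at 405, 401, 466 and 297 CPM in Ctrl replicates 1 to 4 and at 298 and 288 CPM in LSD1skm-/- replicates 1 and 2. Ctrl replicates 1 to 3 lay above both LSD1skm-/- libraries, and the library labelled Ctrl replicate 4 lay between them. Without that library *Gyg* fell to 0.693 of Ctrl (log2 -0.53 ± 0.11, adjusted p = 0.0411 in edgeR), and by the labels the log2 fold change was -0.42 ± 0.18 (unadjusted p = 0.0453, adjusted p = 0.557). The call was lost when any other library was left out, with adjusted p-values from 0.0685 to 0.205, and with library size scaling (0.0536).

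*Ugp2*, which makes the UDP-glucose that glycogen synthase uses, was also lower in the library labelled Ctrl replicate 4 and in both LSD1skm-/- libraries than in Ctrl replicates 1 to 3. It was at 1177, 1207, 1007 and 796 CPM in Ctrl and at 836 and 758 CPM in LSD1skm-/- muscle. Its log2 fold change was -0.39 ± 0.18 by the labels (unadjusted p = 0.0628) and -0.50 ± 0.12 without the library labelled Ctrl replicate 4 (adjusted p = 0.0633). *Gbe1*, the branching enzyme, lay the other way at 74.5, 76.3, 62.9 and 70.6 CPM in Ctrl and at 91.3 and 96.9 CPM in LSD1skm-/- muscle. Here the library labelled Ctrl replicate 4 lay with the other Ctrl libraries, and both LSD1skm-/- libraries lay above all 4. The log2 fold change of *Gbe1* was 0.40 ± 0.11 in both comparisons, with an adjusted p of 0.557 by the labels and 0.0981 without that library. *Gys1*, the glycogen synthase of muscle, was at 470, 447, 473 and 381 CPM in Ctrl and at 399 and 453 CPM in LSD1skm-/- muscle, and its groups overlapped (-0.06 ± 0.13).

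**Figure D4:**
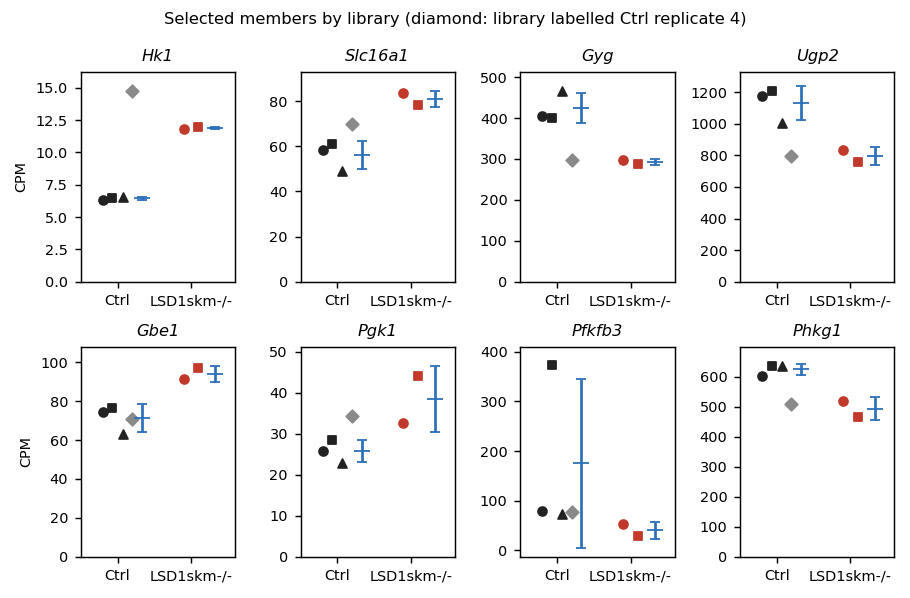
CPM (y axis, from 0 except for *Pfkfb3*, where the error bar needs room) of 8 members in each library, Ctrl and LSD1skm-/- on the x axis; the grey diamond is the library labelled Ctrl replicate 4, and blue marks give the mean ± SD of the other 3 Ctrl and of the 2 LSD1skm-/- libraries. The diamond lies near the red LSD1skm-/- symbols for *Gyg*, *Ugp2* and *Phkg1*, above them for *Hk1*, and with the other Ctrl libraries for *Gbe1*.

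Glycogen breakdown is run by *Pygm*, which phosphorylase kinase switches on. *Pygm* was at 9184, 9212, 9797 and 9315 CPM in Ctrl and at 8680 and 9294 CPM in LSD1skm-/- muscle, a log2 fold change of -0.06 ± 0.11. The 3 kinase subunits among the members all lay below 0. Outside the member list, the subunit genes *Phka2* and *Phkg2* lay at -0.17 ± 0.23 and 0.21 ± 0.19 by the labels. Without the library labelled Ctrl replicate 4, *Phka2* lay at -0.01 ± 0.19 and *Phkg2* at 0.33 ± 0.16. *Phkg1*, the catalytic subunit, was at 602, 635, 634 and 509 CPM in Ctrl and at 519 and 466 CPM in LSD1skm-/- muscle, with a log2 fold change of -0.27 ± 0.13 by the labels and -0.34 ± 0.10 without the library labelled Ctrl replicate 4 (unadjusted p = 0.0132, adjusted p = 0.122). *Phka1*, the muscle alpha subunit, had -0.35 ± 0.14 without that library (unadjusted p = 0.0363), and *Phkb*, the beta subunit, -0.22 ± 0.13 (unadjusted p = 0.134). None of the 3 passed the adjusted threshold in either comparison.

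The scaffolds that bring protein phosphatase 1 to glycogen varied more between libraries of a group. *Ppp1r3c* was at 1853, 789, 1702 and 1247 CPM in Ctrl and at 1338 and 2152 CPM in LSD1skm-/- muscle, so that both groups spanned a wide range. *Ppp1r3a*, the muscle-specific scaffold, was at 479, 432, 536 and 337 CPM in Ctrl and at 481 and 381 CPM in LSD1skm-/- muscle. *Stbd1*, which links glycogen to membranes, was at 46.7 to 103 CPM in Ctrl and at 91.1 and 119 CPM in LSD1skm-/- muscle. Their log2 fold changes by the labels were 0.32 ± 0.34, -0.05 ± 0.19 and 0.34 ± 0.30, and none passed the test.

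Another 102 genes of the same and neighbouring pathways were looked at, of which 98 were in the table and 88 were tested. By the labels 0 of the 88 passed an adjusted p of 0.05 in edgeR, with 4 higher and 3 lower at an unadjusted p under 0.05, beside the 5.02% and 3.88% of all genes. In the comparison of 3 against 2 libraries, 5 of the 88 rose and 1 fell at an adjusted p under 0.05, beside 4.36% and 1.02% of all genes. Those that rose were minor forms at low counts. In Ctrl replicates 1 to 3, each of these 5 genes held 10 to 48 reads per library. They passed the mean count above 50 only through the other libraries, a filter that favours genes that rise. Their calls and adjusted p-values are therefore no independent sign of a rise. *Aldoc*, the brain aldolase, was at 0.463, 0.308 and 0.435 CPM in Ctrl replicates 1 to 3, at 2.88 CPM in the library labelled Ctrl replicate 4, and at 3.34 and 1.91 CPM in LSD1skm-/- muscle (log2 2.69 ± 0.33 in that comparison, adjusted p = 0.0057). *Slc16a7*, which encodes the pyruvate carrier MCT2, was at 0.678 to 0.897 CPM in those 3 Ctrl libraries, at 3.13 CPM in the fourth and at 3.53 and 2.66 CPM in LSD1skm-/- muscle (2.02 ± 0.24, adjusted p = 0.00503). *Emb*, which encodes embigin, a partner of monocarboxylate carriers, was at 0.464 to 1.39, 4.53, and 6.11 and 5.00 CPM in the same order (2.54 ± 0.37, adjusted p = 0.0102).

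*Ppp1r3b*, the liver glycogen scaffold of protein phosphatase 1, had 0.522 to 1.05 CPM in Ctrl replicates 1 to 3, 3.64 CPM in the fourth, and 4.19 and 3.51 CPM in LSD1skm-/- muscle (2.26 ± 0.29, adjusted p = 0.00609). *Pdk3*, a kinase that switches off pyruvate dehydrogenase, had 0.696 to 0.739, 3.20, and 2.17 and 2.71 CPM in the same order (1.76 ± 0.22, adjusted p = 0.00585). In these 5 genes the library labelled Ctrl replicate 4 lay with the LSD1skm-/- libraries and apart from the other Ctrl libraries. *Eya1*, a transcriptional cofactor, fell from 29.6, 32.5 and 29.7 CPM in Ctrl replicates 1 to 3 to 22.6 and 20.5 CPM, with 25.0 CPM in the fourth Ctrl library (-0.50 ± 0.11, adjusted p = 0.0418). By the labels, the lowest unadjusted p-values among the 88 were those of *Eya1* (-0.44, unadjusted p = 0.00997), *Epm2a*, the glycogen phosphatase laforin (-0.87, unadjusted p = 0.0124), and *Ldhd*, the D-lactate dehydrogenase (0.35, unadjusted p = 0.0133). The call of *Eya1* was lost when any further library was left out, with adjusted p-values from 0.0823 to 0.215. *Emb* lost its call without either LSD1skm-/- library and *Pdk3* without LSD1skm-/- replicate 2, with adjusted p-values of up to 0.0699 and 0.0638.

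**Figure D5:**
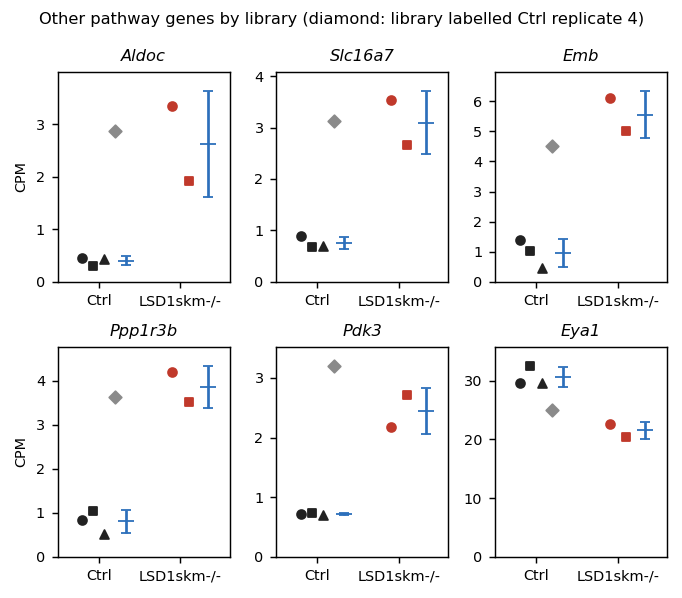
CPM (y axis, from 0) of 6 further pathway genes in each library, Ctrl and LSD1skm-/- on the x axis; the grey diamond is the library labelled Ctrl replicate 4, and blue marks give the mean ± SD of the other 3 Ctrl and of the 2 LSD1skm-/- libraries. *Aldoc*, *Slc16a7*, *Emb*, *Ppp1r3b* and *Pdk3* stand at or below 1.39 CPM in the 3 black Ctrl symbols and at 1.91 CPM or more in the other libraries, and *Eya1* runs the other way.

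The 2 LSD1skm-/- libraries differed from each other in many members, and also in genes outside the pathway. Of the myofiber markers, *Acta1*, *Ckm*, *Des* and *Tnnt3* were higher in replicate 2, and *Ttn* and *Myh4* were lower. *Acta1* stood at 31170 CPM in replicate 1 and 36620 CPM in replicate 2, and *Ttn* at 9694 and 6791 CPM. The difference between these libraries was thus not particular to the members, and its cause was not tested. Of the 19 tested members of upper and lower glycolysis and lactate, 14 were higher in replicate 2 than in replicate 1, with a median ratio of 1.19, beside 51.7% of all tested genes and a median ratio of 1.01. Of the 11 glycogen genes, 5 were higher in replicate 2, with a median ratio of 0.968. The ratio ran from 0.537 for *Pfkfb3* to 1.61 for *Ppp1r3c*.

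Some marker lists of fiber types and of other cells moved between the same libraries, and others overlapped. The 8 slow-twitch genes summed to 1052 to 2101 CPM in Ctrl and 476 and 838 CPM in LSD1skm-/- muscle, with 6 of 8 lower by the labels at an unadjusted p under 0.05. The 11 fast-twitch genes summed to 155700 to 188000 CPM in Ctrl and 153400 and 161700 CPM in LSD1skm-/- muscle, with 5 higher and 6 lower by the labels. The 5 fibroblast genes summed to 370 to 404 CPM in Ctrl replicates 1 to 3, 579 CPM in the library labelled Ctrl replicate 4, and 527 and 618 CPM in LSD1skm-/- muscle, so that, as for *Hk1*, Ctrl replicates 1 to 3 lay below the other 3 libraries. The 5 blood genes summed to 28.2 to 43.7, 52.2, and 64.1 and 65.8 CPM in the same order. Of the fibroblast genes, *Col1a1* and *Col3a1* stood at 99.6 and 227 CPM in the library labelled Ctrl replicate 4. In Ctrl replicates 1 to 3 they reached at most 46.2 and 107 CPM. *Dcn*, at 220 CPM in that library, lay inside the range of Ctrl replicates 1 to 3 (196 to 233 CPM), and *Pdgfra* and *Lum* (16.4 and 15.4 CPM) lay above it. The 8 adipocyte genes summed to 172 to 519 CPM in Ctrl and 166 and 178 CPM in LSD1skm-/- muscle. Most of that sum was *Fabp4*, and 7 of 7 tested adipocyte genes were lower by the labels, 6 of them at an unadjusted p under 0.05. *Adipoq*, which encodes adiponectin, was at 9.70 to 19.6 CPM in Ctrl replicates 1, 2 and 4, at 0.783 CPM in Ctrl replicate 3, and at 0.126 and 0.558 CPM in LSD1skm-/- muscle. The 6 endothelial genes summed to 168 to 214 CPM in Ctrl and to 149 CPM in both LSD1skm-/- libraries, with 5 lower and 1 (*Vwf*) higher by the labels. The 6 immune genes summed to 16.6 to 35.3 CPM in Ctrl and 23.7 and 37.9 CPM in LSD1skm-/- muscle. The 4 Schwann genes summed to 44.0 to 156 CPM in Ctrl and 53.5 and 91.4 CPM in LSD1skm-/- muscle. The groups overlapped in both of these lists. The part of these cells in the differences of the members was not tested, and in bulk muscle fewer cells of a type and less RNA per cell cannot be told apart.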

How the data were processed

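RNA-seq counts of muscle were taken as deposited. Per the study's methods, the authors mapped single-end 50-base reads to mm10, kept unique alignments and deposited raw read counts per gene symbol. Strand use in counting and the aligner are not given in the sources used here. The 11364 rows averaging above 50 reads per library were compared with edgeR 4.0.16 (TMM, quasi-likelihood test, Benjamini-Hochberg) in R 4.3.3. DESeq2 1.42.0, other scalings and filters, a replicate block and each library left out were alternatives. CPM per kilobase used 1 transcript per gene from GENCODE vM21 (GRCm38), which also gave coordinates and shared stretches. The test was checked on simulated counts whose spread came from Ctrl replicates 1 to 3. That check does not cover the spread added by the library labelled Ctrl replicate 4. The members and lists were chosen with earlier results of these data known. All members are named. Of the other pathway genes, those called in either comparison, the 3 with the lowest p by the labels, and *Phka2* and *Phkg2* are named. The labels do not say that replicates are separate mice, so p-values measure the spread between these libraries, and the 2 LSD1skm-/- libraries limit the precision.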

Additional observations from a re-analysis of the deposited data

Results flagged for a closer look

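Among the 4 Ctrl libraries, the gap between the most distant library and its nearest neighbour, divided by the whole range of log2 CPM, was examined for the 36 tested members. Dixon's 95% critical value for 4 samples was exceeded by 3 of them, and its nominal rate is about 1 in 20. The share over all tested genes was not counted, so the 3 are not read as a result about the members. *Hk1* reached 0.96 and *Gpi1* 0.84, both because Ctrl replicate 4, the library with a low *Kdm1a* level, was higher than the others. *Pfkfb3* reached 0.94 because Ctrl replicate 2 was higher than the others, at 373 CPM against 72.8 to 80.4 CPM.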

How the results depend on the processing

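Over the alternatives, 518 of 573 values for named genes by the labels and 460 of 529 without the library labelled Ctrl replicate 4 kept their direction and their side of the adjusted p of 0.05, and none that turned passed it. By the labels, 0 members called became 1 with every row of at least 1 count, beside 149 of 27041 rows. A replicate block called 2 members, beside 632 of all 11364 genes. With 1 of Ctrl replicates 1 to 3 left out, 0 members were called, beside 0 to 6 of all genes. Without Ctrl replicate 4, 3 were called, beside 612 of all genes. In the block model, Ctrl replicates 3 and 4 share their number with no analysed LSD1skm-/- library and add nothing to the difference. The block thus leaves the library labelled Ctrl replicate 4 out of the difference also by the labels. *Hk1* was at 0.89 with the block by the labels and at 0.90 without that library. An unadjusted p called 5 members by the labels, with or without a fold limit. Without the fold limit this rule took 1011 of all genes. Without the library labelled Ctrl replicate 4, the 3 called became 2 with DESeq2 size factors (603 of all genes) or upper-quartile scaling (615). They also became 2 with library size scaling (721), a mean count above 10 (661) or the replicate block (729). The block lost *Slc16a1* and *Gyg* (adjusted p = 0.187 and 0.22 in edgeR) and called *Pfkfb3*. DESeq2 called 7 (1056 of all genes) and every row of at least 1 count 8 (1914 of all genes). With a further Ctrl library left out, 1 was called, beside 321 to 504 of all genes. An unadjusted p called 9, beside 2292 of all genes, and that with a fold limit called 7. For the fold limit, no count over all genes is given. The members' median ran from -0.043 to 0.151 by the labels and from -0.045 to 0.170 without that library when 1 library was left out, and was 0.099 with library size scaling in the latter, where the median of all genes was 0.064. Replicate numbers are shared only by number. The deviations of same-numbered libraries correlated at -0.233 and -0.033. The deviations of only 2 LSD1skm-/- libraries mirror each other, so these values cannot show whether equal numbers mark pairs. Samples were not treated as paired. By the labels, the replicate block turned *Slc2a4* to -0.03, *Hk2* to -0.01, *Pfkp* to 0.07, *Fbp2* to 0.14, *Tpi1* to -0.00 and *Pkm* to -0.04. DESeq2 and its size factors turned *Pkm* to -0.00 and every row of at least 1 count to -0.01, and library size scaling turned *Fbp2* to 0.01 and *Ppp1r3a* to 0.00. Without the library labelled Ctrl replicate 4, the block turned *Slc2a1* to 0.05, *Slc2a4* to -0.03 and *Pkm* to -0.04, library size scaling turned *Slc2a1* to 0.03, *Hk2* to 0.07 and *Pygm* to 0.01, and upper-quartile scaling turned *Hk2* to 0.00. Adding the reads of its pseudogene rows, an alternative chosen after seeing the data, turned *Gapdh* to 0.12 by the labels and 0.15 without that library. With 1 library left out by the labels, the log2 fold change ran from -0.06 to 0.18 for *Slc2a1*, -0.04 to 0.14 for *Hk2*, -0.01 to 0.35 for *Pfkl*, -0.28 to 0.02 for *Pfkp*, -0.23 to 0.18 for *Fbp2*, -0.16 to 0.16 for *Aldoa*, -0.03 to 0.22 for *Tpi1*, -0.40 to 0.09 for *Gapdh*, -0.21 to 0.31 for *Pgam2*, -0.21 to 0.06 for *Eno3*, -0.17 to 0.16 for *Pkm*, -0.10 to 0.30 for *Ldha*, -0.02 to 0.31 for *Slc16a3*, -0.15 to 0.03 for *Gys1*, -0.23 to 0.11 for *Ppp1r3a* and -0.06 to 0.62 for *Ppp1r3c*. Without the library labelled Ctrl replicate 4 and 1 other, it ran from -0.17 to 0.07 for *Slc2a1*, -0.06 to 0.09 for *Slc2a4*, -0.10 to 0.08 for *Hk2*, -0.08 to 0.10 for *Pfkp*, -0.03 to 0.39 for *Fbp2*, -0.14 to 0.19 for *Aldoa*, -0.03 to 0.21 for *Tpi1*, -0.39 to 0.11 for *Gapdh*, -0.17 to 0.35 for *Pgam2*, -0.22 to 0.05 for *Eno3*, -0.16 to 0.17 for *Pkm*, -0.10 to 0.30 for *Ldha*, -0.01 to 0.40 for *Slc16a3* and -0.11 to 0.56 for *Ppp1r3c*. The causes were not tested. Where 1 LSD1skm-/- library was left, it was assumed to vary like the Ctrl libraries. Members with few reads, such as *Hk1*, *Slc2a1*, *Gapdh* and *Eno1* (202 to 962 per library), carry more counting error than the others.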
